A study of Mus musculus with 10 samples.

Results

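Spi1, Cebpa, Cebpb, Cebpd, Cebpg and Irf8 encode the transcription factors PU.1, C/EBPα, C/EBPβ, C/EBPδ, C/EBPγ and IRF8. These 6 genes were taken by name from the 17404 genes of the deposited count table, together with their 20 transcripts among the 133944 that were quantified, and all 6 passed the count minimum used for testing. The libraries were bulk RNA-seq of long-term hematopoietic stem cells (LT-HSCs) sorted as CD150+ cells from mouse fetal livers at E14.5. Of the 10 libraries, 6 came from Tnfrsf11aCre; Spi1f/f embryos (KO) and 4 from Tnfrsf11a+/+; Spi1f/f littermates (WT), all on a C57BL/6 background, and both groups carried the floxed Spi1 alleles. Tnfrsf11a-driven Cre acts in macrophage precursors and their progeny, so the design asked how stem cells fare in a liver depleted of macrophages. The LT-HSCs themselves are not the cells the driver was chosen to recombine, and the sources used here do not give the exons between the loxP sites. Library totals ran from 5315435 to 30941726 counts.

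PU.1 is an ETS-family factor that stem cells carry at a low level and that macrophages, granulocytes and B cells depend on. The C/EBP proteins are basic leucine zipper (bZIP) factors that bind DNA as dimers: C/EBPα starts granulocyte and monocyte commitment, C/EBPβ serves emergency granulopoiesis and macrophage activation, C/EBPδ acts in acute-phase and later myeloid expression, and C/EBPγ lacks a strong activation domain and pairs with other bZIP proteins, among them ATF4. IRF8 is an interferon regulatory factor that binds jointly with PU.1 and directs monocyte and dendritic cell fate, and it is also expressed by macrophages.

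Spi1 lies on the plus strand of chromosome 2 (chr2:91082390-91115756, GRCm38). Its 4 annotated transcripts differ at their 5′ ends, and the coding starts of 3 of them are shown because the transcript results below rest on that difference. Each line gives the first 60 coding bases, 5′ to 3′, with the bases from the first exon in capitals and those from the second exon in lower case, read from the Gencode vM21 transcripts.
Spi1-201: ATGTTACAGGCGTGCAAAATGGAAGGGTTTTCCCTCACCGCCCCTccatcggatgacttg
Spi1-203: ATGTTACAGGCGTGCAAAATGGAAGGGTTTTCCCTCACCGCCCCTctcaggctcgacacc
Spi1-204: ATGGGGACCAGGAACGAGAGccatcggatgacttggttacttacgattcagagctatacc

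Spi1-201 is the full-length transcript of 5 exons, and it alone carries the last exon (chr2:91115075-91115756), which holds 317 coding bases. Spi1-203 shares the coding start of Spi1-201, begins within that transcript's first exon and runs over 3 exons. Spi1-204 begins 13.7 kb upstream of Spi1-201, at chr2:91082390-91082523, and joins a different first exon with 20 coding bases to the same second exon. Spi1-202 is annotated as a processed transcript without coding bases, starts in that upstream first exon and shares no exon with Spi1-201.

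The next stretches come from the RefSeq promoter table of GRCm38.p6, in which 4 of the 6 genes have an entry. Each line holds the 100 bases before the gene's start, 5′ to 3′ on the gene's own strand, and they are shown to compare the factors' start regions. Capitals mark the letters TATAAA. The stretches are chr7:35119193-35119292 (plus strand) for Cebpa, chr8:120736258-120736357 (plus strand) for Irf8, chr2:167688815-167688914 (plus strand) for Cebpb and chr7:35056567-35056666 (minus strand) for Cebpg.
Cebpa: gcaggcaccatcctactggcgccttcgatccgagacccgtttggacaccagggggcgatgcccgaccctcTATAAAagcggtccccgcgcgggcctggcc
Irf8: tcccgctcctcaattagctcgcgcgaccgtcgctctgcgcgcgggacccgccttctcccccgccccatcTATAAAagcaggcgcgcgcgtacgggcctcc
Cebpb: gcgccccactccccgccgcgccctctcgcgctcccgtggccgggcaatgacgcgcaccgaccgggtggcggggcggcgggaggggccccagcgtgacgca
Cebpg: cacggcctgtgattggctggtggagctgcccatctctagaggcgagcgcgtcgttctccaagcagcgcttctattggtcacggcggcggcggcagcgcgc

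TATAAA began 30 bases before the start in Cebpa and 31 bases before it in Irf8, while in Cebpb it lay 21 bases after the start and in Cebpg it was not in the window. Searched on both strands over 300 bases around the start, TATAAA was present in 13.6% of 32851 promoter entries. TTGCNNAA (a C/EBP element), GAGGAA (a PU.1 element) and the interferon-stimulated response element were not in the windows of these 4 genes, including a second entry for Irf8, and were in 10.8%, 28.3% and 3.44% of all entries. Cebpa and Cebpg are neighbours on chromosome 7, point away from each other and have starts 62.7 kb apart. Cebpd lies at chr16:15887286-15891031 on the plus strand. Several of these genes share bases with another annotated gene: Cebpb with Tmem189, Cebpd with Spidr and Cebpa with Gm45091, all on the opposite strand, and Irf8 with Gm20388, which spans it on the same strand. Cebpg shares 1140 bases with Gm44836 and 617 with Gm45094 on the same strand, and 353 with Gm45095 on the opposite strand. The library kit did not mark strand, so reads from such shared bases cannot be told apart by strand.

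None of the 6 genes passed the test between KO and WT. With edgeR's quasi-likelihood test, 0 of the 6 passed an adjusted p of 0.1 (Benjamini-Hochberg over 16725 genes tested), 0 of 6 had an unadjusted p below 0.05, and DESeq2 also called 0 of 6, with 1 (Spi1) at an unadjusted p below 0.05 when no fold-change threshold was set. Over all genes tested, edgeR called 1.32% higher and 2.67% lower in KO, and the median log2 fold change was 0.0623. An unadjusted p below 0.05 was reached by 8.6% of all genes with a higher and 10.2% with a lower level in KO (edgeR). DESeq2, with its fold-change threshold of 0.1 on the log2 scale, called 3.5% higher and 3.29% lower, and without that threshold 20.8% had an unadjusted p below 0.05. The groups overlapped for every one of the 6 genes, while over all genes the libraries of the groups did not overlap for 6.36%. In the values that follow, CPM is counts per 1000000 counts of the library after edgeR's TMM scaling, and a log2 fold change is KO over WT with its standard error (SE).

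**Figure D1:**
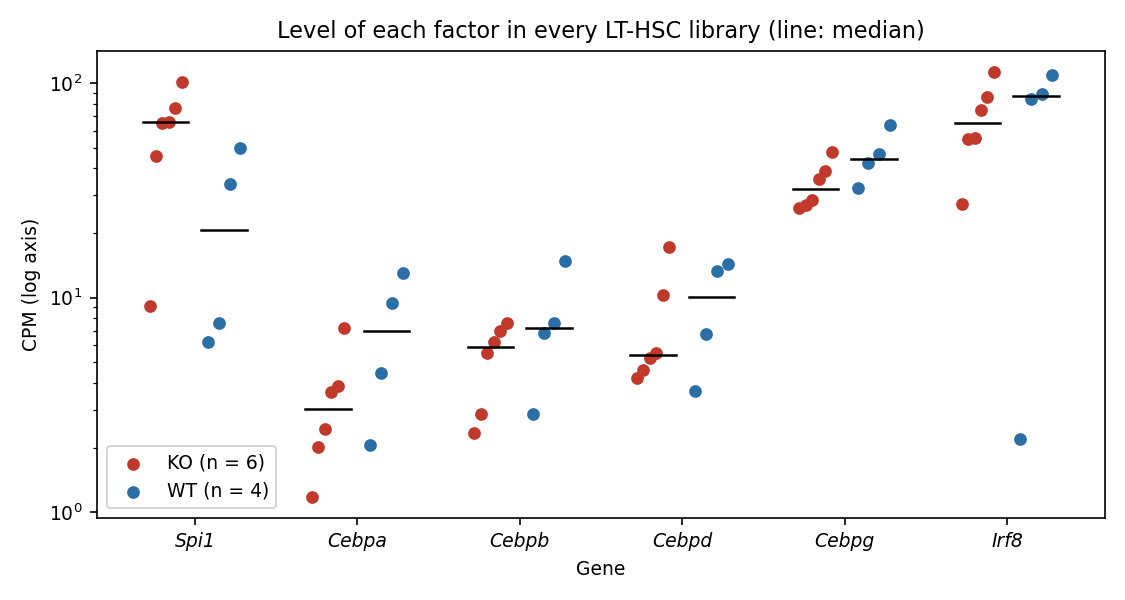
CPM (log axis) of the 6 genes in each KO (red, n = 6) and WT (blue, n = 4) library, with a line at each group's median. The KO and WT points overlap for every gene, and the lowest Irf8 point, 2.20 CPM, is WT 15416.

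Spi1, the floxed gene, was measured at 6.22 CPM in WT 15416, 33.8 CPM in WT 15417, 50.1 CPM in WT 15418 and 7.64 CPM in WT 15420. In the 6 KO libraries its lowest level was 9.10 CPM (KO 15409), its median 65.6 CPM and its highest 101.3 CPM (KO 15411). Thus 2 WT libraries and 1 KO library were low, 4 KO libraries lay above every WT library, and no KO library lay below every WT library. The log2 fold change was 1.31 (SE 0.69, adjusted p = 0.337 by edgeR's quasi-likelihood test). In the single-gene test on log2(CPM + 1), the difference of 1.47 had an exact two-sided permutation p of 0.114 over the 210 ways to split the libraries, whose smallest possible p is 0.00476. Without KO 15409 that p was 0.0159, and without WT 15418 it was 0.0476, while neither omission brought the edgeR adjusted p below 0.1. In 13 other alternative settings, the remaining omissions among them, the permutation p stayed at or above 0.05.

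The summed CPM of 17 stem cell markers ran from 1910 to 2969 in KO and from 894.7 to 1721 in WT. Over the 10 libraries its correlation with Spi1 on the log2 scale was r = 0.77 (Spearman 0.855), and 0.419 without the 2 libraries farthest from the Spi1 median. In bulk RNA, fewer cells of a type and less RNA per cell cannot be told apart, and the part of this marker shift in the Spi1 values was not tested.

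Tnfrsf11a, whose locus drives the Cre and which encodes the receptor RANK, was read at 1.45 to 4.11 CPM in KO and 0.683 to 5.80 CPM in WT (log2 fold change 0.26, SE 0.73, adjusted p = 0.886, edgeR). It therefore did not separate the genotypes, and neither it nor Spi1 checked the labels.

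Of the 54 to 2227 estimated Spi1 counts per library, most were assigned to Spi1-201 in 9 of the 10 libraries. Its share of Spi1 was 57.7% to 69.4% in the 6 KO libraries (63.4% ± 4.23, SD), and in WT it was 60.6%, 69.0%, 67.3% and 4.89%. The low value was WT 15420, where 3 of 54 rounded counts went to Spi1-201 (exact 95% binomial interval 1.16% to 15.4%, counting error only) and 33 of 54 to Spi1-202 (46.9% to 74.1%). Spi1-202 otherwise held 2.40% to 9.04% of Spi1.

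Counts were assigned to Spi1-201 in every KO library, though coverage was not given by exon. Spi1-201 stood at 3.37 to 37.1 TPM (kallisto's level per transcript length, scaled to the same total in every library) in KO and at 1.61, 11.4, 10.3 and 0.153 TPM in WT. Estimated counts went to Spi1-204, the upstream-start transcript, in all 10 libraries. Its share was 22.4% ± 3.66 of Spi1 in KO and 20.3% ± 3.28 in WT (SD, n = 6 and 4). Exons 2 to 4 of Spi1-204 lie within exons of Spi1-201, and its first exon overlaps that of Spi1-202. Reads from those shared bases are split by estimate, so these shares do not directly measure use of the upstream start. None of the 3 transcript shares that could be tested differed between groups. The exact two-sided permutation p was 0.386 for Spi1-204, 0.352 for Spi1-202 and 0.381 for Spi1-201, each 0.386 after Benjamini-Hochberg adjustment over the 3. Without WT 15420 the difference in the Spi1-201 share turned from 12.9 to -2.27 percentage points (KO minus WT) and that in Spi1-202 from -12.2 to 1.70.

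**Figure D2:**
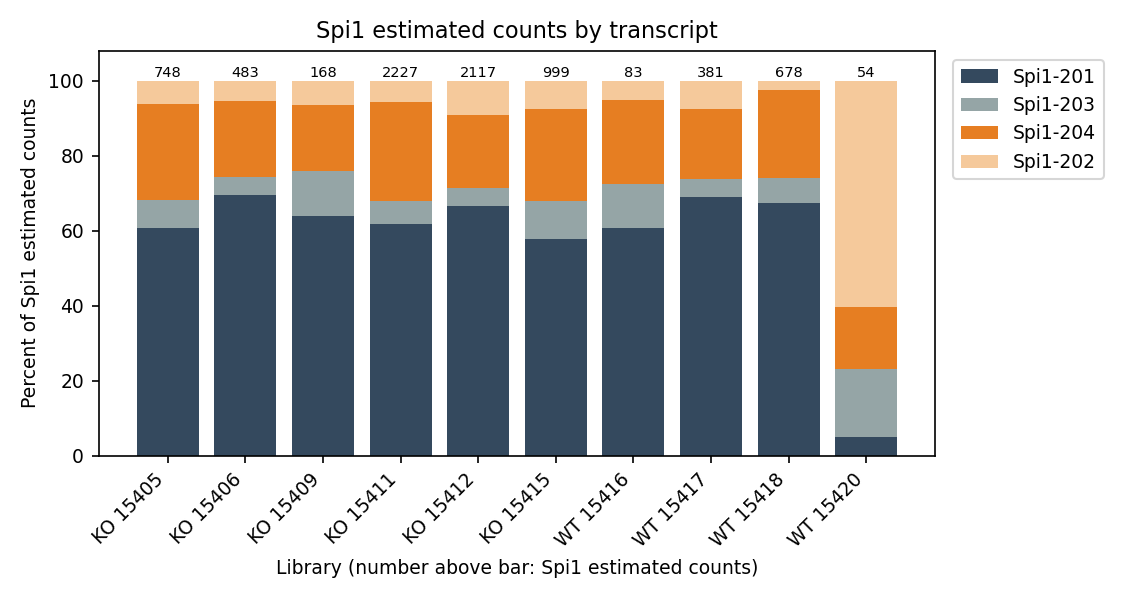
Share of Spi1 estimated counts (percent, stacked) assigned to each transcript in every library, with the Spi1 estimated counts above the bar. WT 15420, with 54 counts, differs from the other 9 libraries in which Spi1-201 holds 57.7% to 69.4%.

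Irf8 was abundant in 9 libraries and nearly absent from 1. Its WT levels were 2.20 CPM in WT 15416, 89.1 CPM in WT 15417, 84.7 CPM in WT 15418 and 109.4 CPM in WT 15420. The KO libraries ran from 27.3 CPM (KO 15415) over a median of 65.0 CPM to 112.6 CPM (KO 15409). WT 15416 held 29 Irf8 counts in a library of 14184429 counts. The log2 fold change was -0.06 (SE 0.70, adjusted p = 0.974, edgeR), and without WT 15416 it was -0.46 (SE 0.34, adjusted p = 0.53). The difference in mean log2(CPM + 1) was 0.65 with an exact permutation p of 0.724, and without WT 15416 it turned to -0.57 (exact p = 0.202).

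The genes most like Irf8 over the 10 libraries were Lyve1 (r = 0.995), Gpr183 (r = 0.995) and Oit3 (r = 0.993), the highest of 10698 genes with a mean of at least 5 CPM. Lyve1 and Oit3 are expressed by liver sinusoidal endothelium, and Gpr183 is a chemotactic receptor of immune cells. The summed CPM of 8 endothelial markers ran from 1203 to 8443 in KO, was 5234, 4002 and 5364 in WT 15417, WT 15418 and WT 15420, and was 229.7 in WT 15416, the library with the least Irf8. Its correlation with Irf8 was r = 0.981 over 10 libraries, 0.818 without the 2 farthest libraries and 0.973 within the 6 KO libraries.

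Each of the 8 endothelial markers had a positive correlation with Irf8, from 0.892 (Tie1) to 0.995 (Lyve1).

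The summed CPM of 18 macrophage markers had a correlation with Irf8 of r = 0.963 over 10 libraries, 0.98 without the 2 farthest and 0.988 within KO. That sum was lowest in WT 15416 (116.9 CPM) and highest in KO 15409 (939.8 CPM). It was mostly Mrc1 (CD206) and Vcam1, which sinusoidal endothelium also expresses and which made up 73.1% of it over all libraries. Mrc1 followed Irf8 with r = 0.991, and the sum of the other 16 markers with r = 0.453. Of the 18 markers, 3 (Mrc1, C1qb and Msr1) had a correlation above 0.5 and 4 a negative one, among them Siglec1 (-0.573), which was highest in WT 15416, while Csf1r (0.0781) was lowest in KO 15409, the library with the most Irf8. The defining macrophage markers were low within the sum: Adgre1 (F4/80) had a median of 0.889 CPM in KO and 1.62 CPM in WT, and Timd4 a median of 0 CPM in KO and 0.296 CPM in WT. Among the 18, only Marco, a scavenger receptor of macrophages, passed the threshold (adjusted p = 0.0824, edgeR), with 0 CPM in all 6 KO libraries and 3.41 to 14.3 CPM in WT. All 8 endothelial markers failed it, as did 14 of 14 granulocyte markers. As edgeR called only 1.32% of all genes higher and 2.67% lower, few calls are to be expected in lists this short. The part of endothelial or macrophage RNA in the Irf8 values was not tested.

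**Figure D3:**
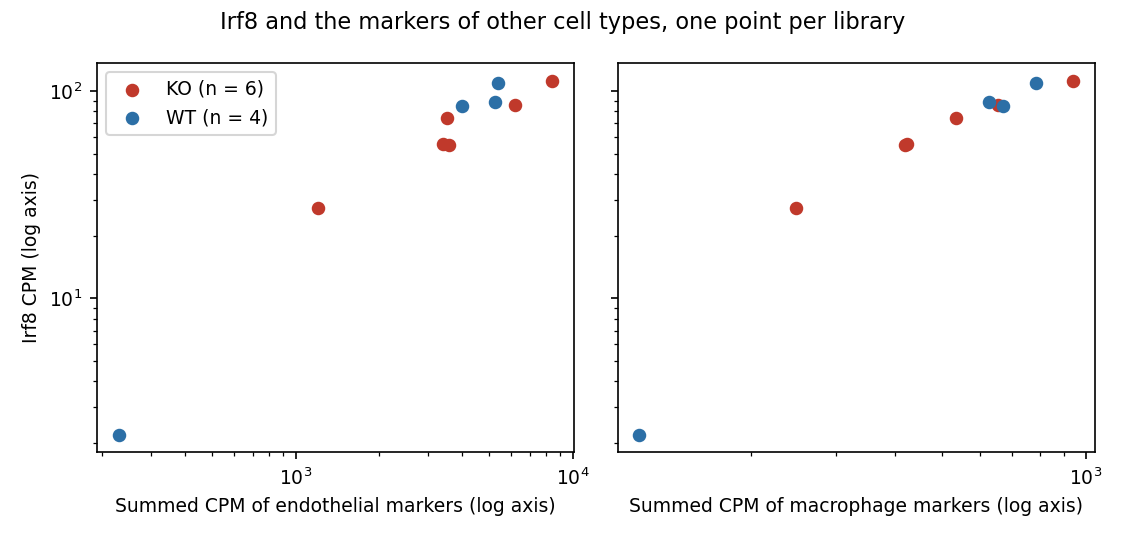
Irf8 CPM against the summed CPM of 8 endothelial (left) and 18 macrophage markers (right) in each library, both axes logarithmic. WT 15416 lies lowest on all 3 measures (2.20, 229.7 and 116.9 CPM), and Mrc1 and Vcam1 make up 73.1% of the macrophage sum over all libraries.

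Cebpa was the factor with the fewest counts, 23 to 176 per library. It stood at 2.05 CPM in WT 15416, 4.44 CPM in WT 15417, 13.01 CPM in WT 15418 and 9.48 CPM in WT 15420. In KO its lowest level was 1.18 CPM (KO 15411), its median 3.04 CPM and its highest 7.23 CPM (KO 15415). Only 1 KO library exceeded the WT median, but WT 15416 lay below 4 of the KO libraries, and the log2 fold change of -1.09 (SE 0.63) had an adjusted p of 0.376 (edgeR). The exact permutation p of the difference in mean log2(CPM + 1), -0.81, was 0.152, and without WT 15416 the difference was -1.21 with p = 0.0357. That permutation p stayed at or above 0.05 in 14 other alternative settings. Cebpa followed the summed hepatoblast markers with r = 0.636 over 10 libraries, 0.718 without the 2 farthest and 0.799 within KO. With the summed erythroblast markers these values were 0.591, 0.624 and 0.581, and with the granulocyte markers 0.514, 0.383 and 0.431. The tie was therefore not particular to hepatoblast markers. C/EBPα is also a hepatocyte factor. The hepatoblast sum ran from 95.3 to 8683 CPM in KO and from 263.6 to 5928 CPM in WT. The part of these cell types in the Cebpa values was not tested. The genes most like Cebpa were Arf5 (r = 0.899), C1qc (r = 0.893), a complement subunit made by macrophages, and Dcaf6 (r = 0.886).

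Cebpb, a gene with a single annotated transcript, was read at 2.88, 7.63, 6.88 and 14.9 CPM in WT 15416, WT 15417, WT 15418 and WT 15420. The KO libraries ran from 2.33 CPM (KO 15409) over a median of 5.87 CPM to 7.59 CPM (KO 15406). The groups overlapped, with WT 15420 above every KO library, and the log2 fold change was -0.62 (SE 0.53, adjusted p = 0.572, edgeR; exact permutation p of the difference in means 0.348). Without WT 15420 it was -0.15. Lgals3 (galectin-3, r = 0.984), H2-DMa, which loads peptides on MHC class II (r = 0.976), and the pseudogene Rpl7-ps9 (r = 0.975), whose count is uncertain because it shares sequence with other Rpl7 copies, had the patterns most like it.

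Cebpd varied more within the groups than between them. WT levels were 6.75, 14.4, 13.3 and 3.68 CPM in the same order of libraries, and KO levels ran from 4.21 CPM (KO 15412) over a median of 5.38 CPM to 17.3 CPM (KO 15409). The highest Cebpd level was thus in a KO library and the lowest in a WT library. The log2 fold change was -0.28 (SE 0.53, adjusted p = 0.824, edgeR; exact permutation p 0.614), and Ppp1ca, the catalytic subunit of a protein phosphatase, Ckb, a creatine kinase, and Mgat2, a glycosyltransferase, resembled it with r = 0.891, 0.877 and 0.859.

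Cebpg was the steadiest of the 6, with a coefficient of variation of 24.9% in KO and 28.1% in WT, against 41.4% to 65.2% in KO and 54.1% to 87.1% in WT for the other genes. It stood at 32.5, 42.2, 46.7 and 63.6 CPM in the 4 WT libraries. In KO the lowest level was 26.1 CPM (KO 15406), the median 32.1 CPM and the highest 47.7 CPM (KO 15409). Of the KO libraries, 3 lay below every WT library and 1 lay above the WT median. The log2 fold change of -0.44 (SE 0.25) had an adjusted p of 0.366 (edgeR). The exact permutation p was 0.105, changing to 0.0476 without KO 15409 and to 0.0476 without WT 15416. It stayed at or above 0.05, with the same sign of the difference, in 12 other alternative settings. On TPM the difference in means was 0.20 in the other direction (exact permutation p = 0.395), so the sign rested on the scale. Egln1, an oxygen-sensing prolyl hydroxylase (r = 0.974), Hsp90b1, the endoplasmic reticulum chaperone GRP94 (r = 0.957), and Trappc1, a vesicle-tethering subunit (r = 0.955), had the patterns most like Cebpg.

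The genes most like Spi1 were Nfam1, an ITAM-bearing signalling protein of immune cells (r = 0.988), Sash3, a lymphocyte signalling adaptor (r = 0.98), and Fgd2, a guanine nucleotide exchange factor of myeloid cells and B cells (r = 0.973). Their own log2 fold changes were 1.13, 1.15 and 1.25, and none passed the threshold (adjusted p 0.368, 0.222 and 0.365, edgeR). All of these likeness values are descriptions over 10 libraries that share their composition and depth.

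Compared per length, in TPM, Spi1 was the highest of the 6 in KO (median 67.8 TPM, range 12.3 to 138.2) and was above Irf8 (26.3 TPM, 10.3 to 47.0) in 5 of the 6 KO libraries. In WT, Irf8 (24.4 TPM, 1.21 to 31.6) and Spi1 (22.7 TPM, 6.46 to 33.5) exchanged places between libraries, and Irf8 was the higher in 1 of 4. The Spi1 sum includes the short transcripts Spi1-202, Spi1-203 and Spi1-204, which weigh heavily per length. Cebpg followed at 8.29 TPM in KO and 7.38 TPM in WT and was above Cebpb in 10 of 10 libraries. Cebpb (3.58 TPM in KO, 3.99 TPM in WT), Cebpd (2.09 and 1.85 TPM) and Cebpa (1.48 and 2.67 TPM) were lowest, and Cebpd and Cebpa did not differ beyond their spread, with Cebpd the higher in 6 of 10 libraries.

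Since the balance of these factors is held to bias lineage choice, 5 ratios were compared within each library as log2 of (CPM + 1) over (CPM + 1). On average Spi1 stood further above Cebpa in KO than in WT, but the difference did not pass after adjustment over the 5 ratios. The log2 ratio was 1.24, 2.68, 1.87 and -0.28 in WT 15416, WT 15417, WT 15418 and WT 15420. In KO the lowest was 1.56 (KO 15409) and the highest 5.55 (KO 15411), with a mean of 3.65 ± 1.32 against 1.38 ± 1.25 in WT (SD, n = 6 and 4). The groups overlapped through KO 15409, and 5 KO libraries lay above every WT library. The difference of 2.27 had an exact two-sided permutation p of 0.0238 alone and 0.119 after Benjamini-Hochberg adjustment over the 5 ratios. Without WT 15416 the p was 0.0714 for a difference of 2.23, and without WT 15420 it was 0.0714 for 1.72.

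The other 4 ratios did not pass the exact permutation test even before adjustment, and none of the 5 passed after it. Gata2, a stem and progenitor factor that opposes PU.1, gave a Spi1 to Gata2 log2 ratio of -0.07 ± 0.54 in KO and -0.37 ± 1.06 in WT (SD, exact permutation p = 0.557), since Gata2 itself was at 19.1 to 78.8 CPM in KO and 14.4 to 34.8 CPM in WT (log2 fold change 1.27, SE 0.38, adjusted p = 0.113, edgeR). Gata2 was past the threshold in 5 of 23 alternative settings, among them DESeq2 with its fold-change threshold (adjusted p = 0.066) and edgeR without KO 15409 (adjusted p = 0.0494). The ratio of Irf8 to Cebpa was 3.99 ± 1.21 in KO and 2.53 ± 1.74 in WT (exact permutation p = 0.162). Its difference, 1.45 over all libraries, was 1.89 without KO 15415 with an exact permutation p of 0.0317. In 12 other alternative settings that p stayed at or above 0.05. The ratios of Cebpb and Cebpg to Cebpa differed by 0.35 and 0.38 (exact permutation p 0.505 and 0.443).

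**Figure D4:**
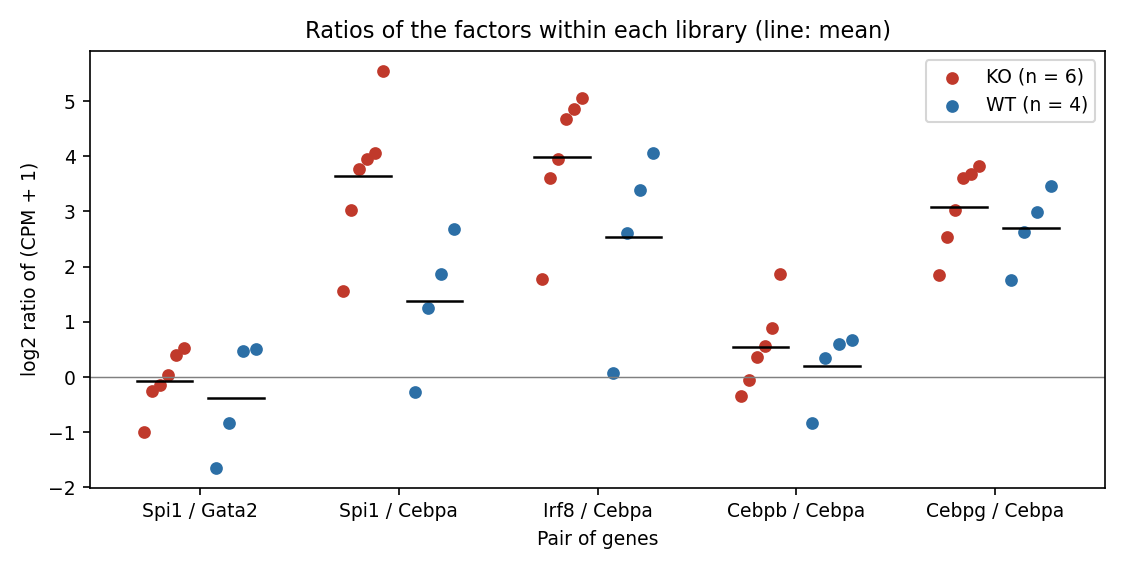
log2 ratio of (CPM + 1) for 5 pairs of genes in each KO (red, n = 6) and WT (blue, n = 4) library, with a line at each group's mean. For Spi1 over Cebpa the means are 3.65 and 1.38, and the lowest KO point lies among the WT points.

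Of 29 tested C/EBP relatives and bZIP partners, 4 were higher and 0 lower in KO by edgeR, with a median log2 fold change of 0.22. Fosl2 (Fra-2) rose from 4.10 to 22.3 CPM in WT to 31.0 to 149.7 CPM in KO, with no overlap (log2 fold change 2.78, SE 0.60, adjusted p = 0.0824, edgeR). Jun, its dimer partner in AP-1, was at 32.3 to 93.7 CPM in WT and 84.6 to 289.2 CPM in KO, the groups overlapping through KO 15409 (1.62, SE 0.35, adjusted p = 0.0824). Fosb rose from a median of 2.53 to 15.8 CPM (2.73, SE 0.77, adjusted p = 0.0974), again with KO 15409 (2.00 CPM) among the WT levels.

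Hlf, a PAR-domain bZIP factor of stem cells, rose from a WT median of 24.0 to a KO median of 94.1 CPM (1.84, SE 0.49, adjusted p = 0.0906, edgeR). The groups overlapped, since KO 15409 (13.7 CPM) lay below every WT library, the lowest of which was at 17.7 CPM. Hlf is also on the stem cell marker list, of which 4 of 17 passed, all higher. The bZIP partners of C/EBPγ in stress responses did not pass: Atf4 ran from 109.9 to 213.1 CPM in KO and 139.8 to 212.9 CPM in WT (-0.30, SE 0.21, adjusted p = 0.487), and Ddit3 (CHOP), a C/EBP family member, from 12.9 to 39.4 and 34.96 to 53.2 CPM (-0.60, SE 0.29, adjusted p = 0.287). By DESeq2 with a fold-change threshold, 6 of the 29 were called, all higher in KO. Over all genes, edgeR called 1.32% higher and 2.67% lower, and DESeq2 with that threshold 3.5% and 3.29%.

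Of 30 tested regulators of the myeloid factors, 3 were higher and 0 lower by edgeR (median 0.09): Jun, Nab2 and Stat3. DESeq2 with its threshold called 6 higher, adding Egr1, Gata2 and Junb, and 1 lower, Cop1 (Junb and Cop1 named after their values were seen). Of all genes tested, edgeR called 1.32% higher and 2.67% lower, and DESeq2 with its threshold 3.5% and 3.29%. Nab2, a corepressor of EGR factors downstream of PU.1, was at 4.81 to 9.02 CPM in WT and 12.96 to 21.7 CPM in KO (1.30, SE 0.32, adjusted p = 0.0824). Stat3, which relays IL-6 and G-CSF signals to the C/EBP genes, was at 99.1 to 150.8 and 159.4 to 230.5 CPM (0.72, SE 0.19, adjusted p = 0.0836). The groups did not overlap for either gene.

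The other named regulators missed the threshold by edgeR. Egr1 (1.82, SE 0.65, adjusted p = 0.168 by edgeR and 0.0645 by DESeq2 with its threshold) and Runx1, which activates Spi1 (1.18, SE 0.50, adjusted p = 0.232, and 0.0549 without KO 15409), had positive log2 fold changes, as did Gfi1, an antagonist of PU.1 (0.65, SE 0.68, adjusted p = 0.655). Trib1 and Trib2, which target C/EBPα protein for degradation, had values of 0.09 (SE 0.60, adjusted p = 0.952) and -0.30 (SE 0.45, adjusted p = 0.776). Among 10 interferon regulatory factors and STATs, 1 was higher and 0 lower (median 0.33): Irf1, at 20.9 to 29.7 CPM in WT and 38.7 to 142.0 CPM in KO without overlap (1.68, SE 0.36, adjusted p = 0.0824). Irf4, the closest relative of Irf8, was listed at 0 to 3.34 CPM (adjusted p = 0.941). The SPI relatives Spib and Spic were at most 1.37 and 9.34 CPM, with 0 of 2 past the threshold by edgeR, 0 at an unadjusted p below 0.05 and 0 by DESeq2. Beside these counts, edgeR called 1.32% of all genes higher and 2.67% lower, and DESeq2 with its threshold 3.5% and 3.29%. An unadjusted p below 0.05 by edgeR was reached by 8.6% with a higher and 10.2% with a lower level.

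Whether these 7 genes passed the threshold depended on the setting and on single libraries. Over all genes, 0 or 1 were called higher when KO 15405, KO 15406, KO 15411, KO 15412, KO 15415 or WT 15416 was left out. Jun, Nab2, Fosl2 and Irf1 each stayed past it in 13 of 23 alternative settings, Stat3 in 11, Hlf in 10 and Fosb in 8, and none turned in direction. The largest adjusted p values over those settings ran from 0.271 (Jun and Stat3) to 0.586 (Fosb).

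**Figure D5:**
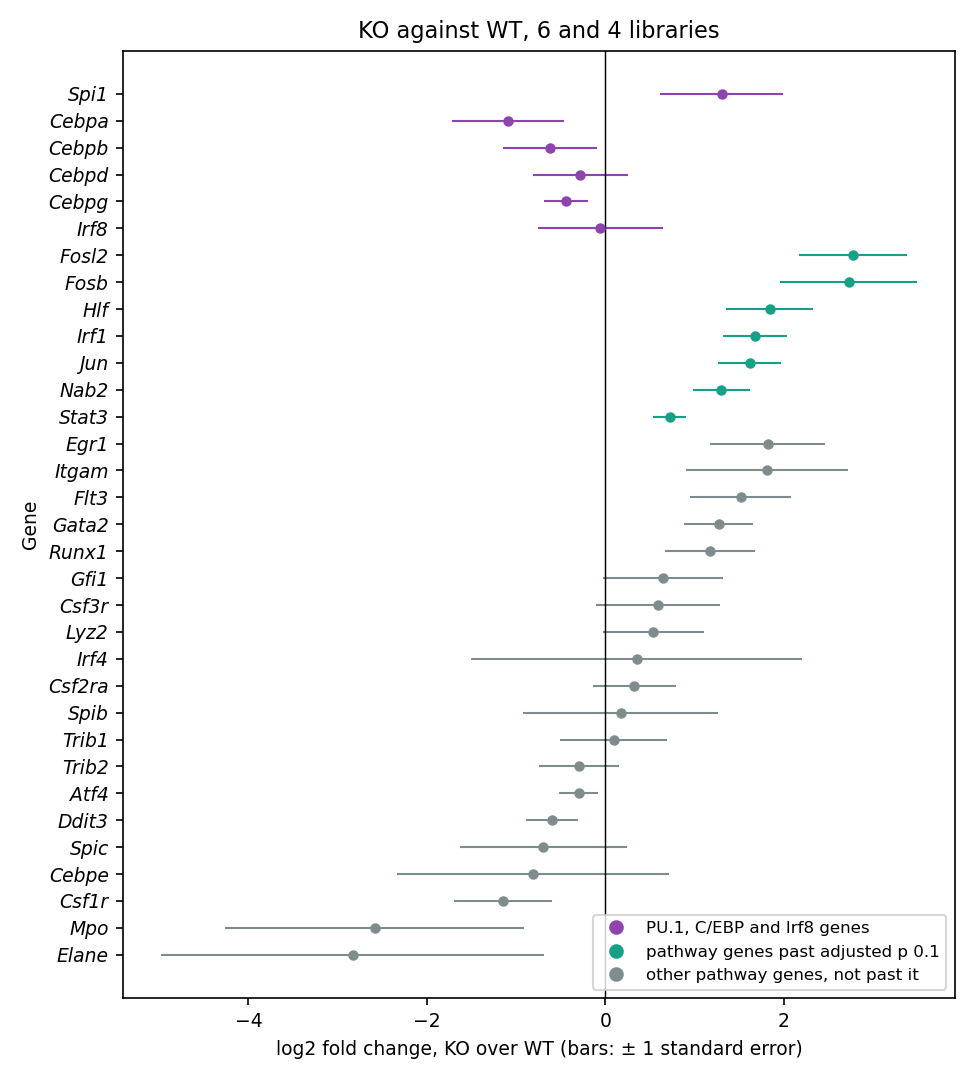
log2 fold change, KO over WT, with bars of 1 standard error for the 6 factors (purple), the 7 pathway genes past an adjusted p of 0.1 (green) and 20 further named pathway genes that were not past it (grey). The 7 green points lie between 0.72 and 2.78, and Spi1 (1.31) is the only purple point above 0.

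The genes that PU.1 and the C/EBP factors are known to activate did not pass the threshold. Of 33 tested targets, 0 were higher and 0 lower by edgeR (4 at an unadjusted p below 0.05, all higher, and 1, Ptprc, by DESeq2, named after its value was seen), with a median of 0.30. For comparison, edgeR called only 1.32% of all genes higher and 2.67% lower, so few calls are to be expected in a list of this size. At an unadjusted p below 0.05 by edgeR, 8.6% of all genes were higher, and DESeq2 with its threshold called 3.5% higher. The log2 fold changes were 1.81 for Itgam (SE 0.91, adjusted p = 0.309), 0.54 for Lyz2 (SE 0.57, adjusted p = 0.66), -2.58 for Mpo (SE 1.68, adjusted p = 0.442) and -2.83 for Elane (SE 2.15, adjusted p = 0.52). The last pair, granule proteins of granulocyte progenitors, rested on WT 15418, where Mpo stood at 1193 CPM and Elane at 205.0 CPM, against at most 8.43 and 2.04 CPM in the other WT libraries. Without WT 15418 their log2 fold changes were 3.20 (SE 1.32, adjusted p = 0.222) and 3.36 (SE 2.44, adjusted p = 0.461, edgeR), neither past the threshold. Among the KO libraries both genes were highest in KO 15412, at 156.2 and 37.6 CPM.

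The granulocyte markers as a whole summed to 2252 CPM in WT 15418 and 1391 CPM in KO 15412, and to between 19.95 and 424.7 CPM elsewhere. Cebpe, the C/EBP of late granulocytes, had 70 counts in WT 15418, 65 in KO 15412 and 0 in the other 3 WT libraries. Of 14 tested late granule genes, 0 passed by edgeR (1 at an unadjusted p below 0.05, 0 by DESeq2; median 0.64). Among all genes, edgeR called 1.32% higher and 2.67% lower, and 8.6% and 10.2% had an unadjusted p below 0.05. WT 15418 also had the highest Cebpa level, 13.01 CPM, while Cebpa in KO 15412 stood at 3.90 CPM, and the part of granulocyte RNA in the Cebpa values was not tested.

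Of 12 receptors for myeloid growth factors, 0 passed by edgeR, 5 had an unadjusted p below 0.05, all higher in KO, and DESeq2 called 1, Csf2rb, named after its value was seen (median 0.81). Among all genes tested, edgeR called 1.32% higher and 2.67% lower, and 8.6% were higher at an unadjusted p below 0.05. DESeq2 with its threshold called 3.5% higher. Csf2rb, the common β chain, was at 28.4 to 47.5 CPM in KO and 0.228 to 18.2 CPM in WT without overlap (1.87, SE 0.70, adjusted p = 0.186). Flt3 had a log2 fold change of 1.52 (SE 0.57, adjusted p = 0.18, and 0.0705 without KO 15409), Csf3r, the G-CSF receptor and a C/EBPα target, one of 0.59 (SE 0.70, adjusted p = 0.702), Csf2ra one of 0.32 (SE 0.46, adjusted p = 0.76) and Csf1r, the M-CSF receptor and a PU.1 target, one of -1.15 (SE 0.55, adjusted p = 0.282). Csf1r was at 13.9 to 76.2 CPM in WT and 5.25 to 34.5 CPM in KO and is on the macrophage marker list too. Of 19 tested monocyte and dendritic genes listed beside IRF8, 0 passed by edgeR (1 at an unadjusted p below 0.05) and 0 by DESeq2. Their median was -0.16, and their dependence on IRF8 was not tested.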

How the data were processed

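The authors made the libraries with SmartSeq2 from about 5 ng of RNA and sequenced them single-end; per the labels, bcl2fastq 2.20 and kallisto 0.44.0 were used, with Gencode vM16 as the transcript set. The deposited values used here are whole-number counts per gene, and estimated counts and TPM per transcript. Estimated counts were rounded only for the fit on transcript sums and for the binomial intervals. Transcripts were named with Gencode vM21 of the same build (133445 of 133944 matched), and gene TPM were sums over transcripts.

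The 16725 genes whose counts summed to 11 or more were fitted with edgeR 4.0.16 (TMM, robust quasi-likelihood, group as the only term; R 4.3.3), p adjusted by Benjamini-Hochberg and called below 0.1. Standard errors were derived from the F statistic. The study's own test, DESeq2 (1.42.0) with a fold-change threshold of 0.1, was an alternative. Single values were compared by two-sided exact permutation tests on log2(CPM + 1). Transcript shares used libraries with at least 20 estimated counts and transcripts holding 10% to 90% of the gene on average. Scripts were tested on simulated data.

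The study gives n as embryos (6 KO, 4 WT). The groups share no replicate numbers. Cebpa had 23 to 176 counts per library. Of the genes tested, 97.4% had a length and GC value. Named genes were the 6 factors, list genes past the threshold (at most 4 a direction), 20 set genes, 3 most similar genes for each factor, and markers or genes that a result turned on. The members and lists were chosen with earlier results of these data known.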

Additional observations from a re-analysis of the deposited data

Results flagged for a closer look

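In WT 15420, 60.5% of the Spi1 estimated counts were assigned to the non-coding upstream transcript Spi1-202 and 4.89% to the full-length Spi1-201, each far from the other WT libraries. The gap to the nearest WT library was 0.912 and 0.869 of the group's whole range. These are shares of 54 estimated counts and of each other, so they are a single deviation seen in 2 transcripts. Chance alone sets off this comparison in about 1 of 20 groups, and 28 groups were examined.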

How the results depend on the processing

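The 6 factors stayed short of the adjusted threshold under all 23 alternatives, with adjusted p values from 0.174 (Spi1, without KO 15409) upwards. The direction of the log2 fold change held for Spi1, Cebpa, Cebpb and Cebpg. It reversed for Irf8 with transcript sums and length offsets (0.0498), with Xist as a covariate (0.17) and with the number of genes detected as a covariate (0.84), and for Cebpd with Xist as a covariate (0.0356). Leaving out 1 library gave -0.46 to 0.22 for Irf8. On log2(TPM + 1) the differences in means were 0.25 for Cebpd and 0.20 for Cebpg, against -0.26 and -0.43 on CPM. Leaving out 1 library gave differences in means of 1.02 to 1.96 for Spi1, -1.21 to -0.47 for Cebpa, -0.58 to -0.26 for Cebpg and -0.57 to 1.13 for Irf8, log2 ratios of -0.12 to 0.59 for Spi1 to Gata2, 1.72 to 2.71 for Spi1 to Cebpa and 0.63 to 1.96 for Irf8 to Cebpa, the last with an exact permutation p of 0.0317 without KO 15415, and differences in share of -17.7 to 1.70 percentage points for Spi1-202 and -2.27 to 19.1 for Spi1-201 (leaving out libraries for the shares was chosen after seeing the data). Among named genes that missed the threshold, signs reversed for Trib1 (-0.18, length offset), Spib (-0.27, GC offset, and -0.0145, genes detected), Tnfrsf11a (-0.0782, transcript sums) and Irf4 (-5.46, Xist, and -5.40, genes detected). With 1 library left out they spanned -0.30 to 0.53 for Trib1, -0.46 to 0.41 for Trib2, -0.18 to 1.28 for Spib, -0.0434 to 1.43 for Tnfrsf11a, -0.43 to 4.83 for Irf4, -3.39 to 3.20 for Mpo, -5.57 to 3.36 for Elane and -1.45 to 6.58 for Cebpe. The count of genes called was the least stable value: 221 higher and 446 lower became 585 higher and 551 lower with DESeq2 and its threshold, 998 and 1145 without the threshold, 0 and 0 with an offset for transcript length, with Xist as a covariate and at an adjusted p below 0.05, 1 and 0 with genes detected as a covariate, and 0 to 405 and 0 to 598 with 1 library left out. For the offset, 1142 and 1526 genes still had an unadjusted p below 0.05, for Xist 866 and 1508. The cause was not tested. No paired or litter-based analysis was made, because the sample labels used here do not name litters. Depth limits Cebpa, with 23 to 176 counts a library, and Cebpe and Irf4, which had 0 counts in some libraries.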
